A study of Mus musculus with 56 samples.

Results

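Jup, Aqp3, Prss46 and Tgm1 are the 4 genes that passed 2 thresholds, a fold change over 2 and an edgeR adjusted p under 0.05, in all 8 comparisons of knockout with WT T cells but not in a single direction. They were selected on these same comparisons, so their differences between knockout and WT are described here with no test. Each table of counts lists 47937 genes, of which 12924 were tested in both tables. Of those, 340 (2.63%) passed in all 8 comparisons, 166 of them higher in each comparison, 170 lower in each, and the 4 described here in mixed directions. The comparisons came from RNA sequencing of mouse CD4+ T cells that were activated and polarized in culture for 4 days into TH1, TH2, TH17 or Treg cells. The cells were from spleen and lymph nodes of C57BL/6 mice of both sexes, 6 to 10 weeks old. One experiment compared cells of mice with Odc flox/flox and CD4Cre, labelled Odc-/- here, with WT littermates. The other compared cells of mice with Dohh flox/flox and CD4Cre, labelled Dohh-/-, with WT littermates of their own. All groups of both experiments received anti-CD3, anti-CD28 and IL-2. TH1 cultures also received IL-12 and anti-IL-4, TH2 cultures IL-4 and anti-IFN-γ, TH17 cultures IL-6, TGF-β and IL-1β with antibodies to IFN-γ and IL-4, and Treg cultures TGF-β with the same antibodies. Cre was driven by the Cd4 promoter, which is also active in thymocytes that later become CD8+ T cells, so deletion precedes the culture. The table of the first experiment held 31 libraries, 4 per group except for 3 labelled Odc-/- in TH2 cells (replicate 1 of that group is not analysed here). The Dohh table held 24 libraries, 3 per group.

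Ornithine decarboxylase, the product of Odc1, makes putrescine, from which spermidine and spermine are built. Spermidine is also the donor for hypusine, a modified lysine of the translation factor eIF5A, and deoxyhypusine hydroxylase, the product of Dohh, completes that modification. Both deletions therefore touch one pathway, at its entry and at its last step. The 4 genes are not part of that pathway, and Jup, Aqp3 and Tgm1 are best known from epithelia. Jup encodes plakoglobin, or γ-catenin, an armadillo protein of desmosomes and adherens junctions and a close relative of β-catenin. Aqp3 encodes a plasma membrane channel for water, glycerol and hydrogen peroxide that is abundant in the basal epidermis and collecting duct, and that T cells also use. Tgm1 encodes the membrane-bound transglutaminase that crosslinks proteins of the cornified envelope in the outer epidermis. Prss46 encodes a serine protease of a cluster with other serine protease genes that are known mainly from testis.

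Libraries of the Odc table summed to between 5905374 and 9145214 counts and libraries of the Dohh table to between 6572148 and 12576933. Levels are given as CPM, counts scaled to library size. Where a library held no read of a gene, a level of up to 3 counts remains possible, which is 0.31 to 0.499 CPM depending on the library of the first table and 0.226 to 0.473 CPM for those of the second. These limits, and the intervals given below for low counts, cover counting error only. The targeted genes did not mark the labels, since Odc1 never passed the 2-fold threshold in the Odc comparisons (357 to 860 CPM in WT and 424 to 680 CPM in libraries labelled Odc-/-), and Dohh was higher in the libraries labelled Dohh-/-, with a call in 3 of 4 comparisons. Reads from outside the deleted exons can keep such a count up, so a count over the whole gene does not test the deletion. Groups are therefore named by their labels. Libraries of the 2 labels did differ in other genes, such as Ifng, which encodes interferon-γ and was at 103 to 328 CPM in TH17 cells labelled Dohh-/- against 2.1 to 2.63 CPM in WT, and at 92.2 to 250 CPM in TH17 cells labelled Odc-/- against 5.15 to 23.9 CPM. In TH1 and TH17 cells the library labelled Odc-/- of replicate 1 stood nearer to WT than the others did. Over genes called in fits without that library, the least-squares slope of its differences from WT on those of the other libraries of the group was 0.523 and 0.55 (0.855 in Treg cells), and results without these 3 libraries are given where they moved. Among libraries labelled Dohh-/-, the slope was lowest for replicate 1 of TH17 cells (0.641), replicate 3 of TH1 cells (0.642) and replicate 1 of TH2 cells (0.719). Same-numbered libraries of one genotype deviated together across subsets, with r over 0.1 in 44 of 45 pairs of the Odc table and 28 of 36 pairs of the Dohh table, so the 4 comparisons of a table are not independent of each other. In WT cells the lineage factors given here followed the labels of TH1, TH2 and Treg cells, with Tbx21 at 74.4 to 205 CPM in TH1 cells, Gata3 at 220 to 269 CPM in TH2 cells and Foxp3 at 393 to 639 CPM in Treg cells. Cd4 itself was at 661 to 968 CPM in WT cells of the Dohh table and at 22.1 to 79.7 CPM in the libraries labelled Dohh-/-.

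Jup, Aqp3 and Prss46 shared a single order of signs. In the Odc table they were lower than WT in TH1 and TH2 cells and higher than WT in TH17 and Treg cells, and in the Dohh table they were lower than WT in every subset. Without any threshold, 171 of the 12924 genes (1.32%) had that order of signs. Tgm1 was lower in all 4 subsets of the Odc table and in TH1, TH2 and TH17 cells of the Dohh table, and was higher only in Treg cells labelled Dohh-/-. Its order of signs was held by 188 genes (1.45%). The order of signs is part of how the genes were chosen, and nothing is read from these shares. When the difference was tested against 2-fold itself rather than against 0, no higher call of Jup, Aqp3 or Tgm1 passed, and Prss46 alone kept both directions, through TH17 cells labelled Odc-/-.

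**Figure D1:**
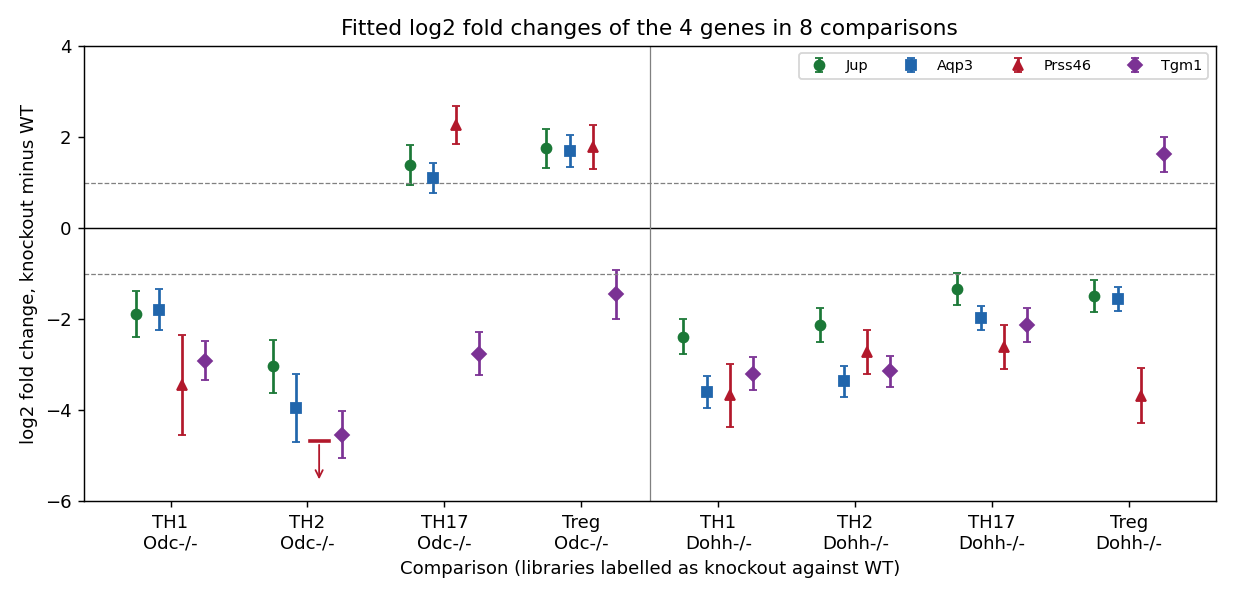
Fitted log2 fold change (knockout-labelled minus WT, y axis) of Jup, Aqp3, Prss46 and Tgm1 in each of the 8 comparisons (x axis), with bars of 1 SE and dashed lines at 2-fold. The arrow for Prss46 in TH2 cells starts at 25.7-fold lower, the value for 3 knockout counts, because no read was counted in the libraries labelled Odc-/-. Green, blue and red symbols lie above 0 only in TH17 and Treg cells labelled Odc-/-, and the purple symbol (Tgm1) only in Treg cells labelled Dohh-/-.

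Jup (ENSMUSG00000001552.14) lies on chromosome 11, minus strand, from 100368958 to 100397763 in GRCm38, with 6436 bases of exon that overlap no exon of another annotated gene. Its WT means in the Odc table ran from 7.13 ± 1.35 CPM (SD, n = 4) in TH17 cells to 16.8 CPM in TH2 cells, a ratio of 2.35, and those of the Dohh table from 17.4 CPM in TH1 cells to 26.6 CPM in Treg cells, a ratio of 1.53. Each pair of neighbours in both WT orders overlapped between libraries. The orders themselves were not alike, with TH2 above TH1, Treg and TH17 among the first WT libraries, and Treg above TH17, TH2 and TH1 among those of the Dohh table.

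In TH2 cells of the Odc table, Jup was at 18.5, 16.8, 20.3 and 11.5 CPM in the WT libraries and at 1.46, 2.68 and 1.94 CPM in those labelled Odc-/-. The groups were far apart, and the fitted difference was -3.04 ± 0.58 (log2, SE), or 8.23-fold lower. In TH1 cells the WT libraries held 14.6, 10.8, 13.2 and 6.37 CPM, and those labelled Odc-/- held 7.1, 1.32, 1.69 and 2.24 CPM. Here the groups overlapped, because replicate 1 labelled Odc-/- lay above WT replicate 4. The fitted difference was -1.88 ± 0.50, and it was -2.68 without the 3 libraries named above. In TH17 cells Jup was at 7.19, 7.73, 8.37 and 5.23 CPM in WT and at 5.71, 33.7, 15 and 20.6 CPM in the libraries labelled Odc-/-. Of those libraries, 3 lay above all WT libraries and replicate 1 lay within them. The fitted difference was 1.39 ± 0.44, or 2.63-fold higher, and it was 0.95, under the 2-fold threshold, when replicate 2 labelled Odc-/- was left out. In Treg cells the WT libraries held 10.8, 8.27, 10 and 5.59 CPM against 12.3, 46.4, 19.2 and 39.1 CPM in those labelled Odc-/-. There the groups did not overlap, although replicate 1 lay close to WT, and the difference was 1.75 ± 0.43, or 3.37-fold higher.

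In the Dohh table Jup was lower in each subset, and no knockout library reached its WT group. TH1 cells held 21.1, 19.4 and 11.7 CPM in WT and 2.15, 0.947 and 6.62 CPM in the libraries labelled Dohh-/- (-2.39 ± 0.38). Leaving out replicate 3 labelled Dohh-/- took this difference to -3.41. TH2 cells held 17.5 to 23 CPM in WT and 4.09 to 4.98 CPM when labelled Dohh-/- (-2.13 ± 0.37), with all 3 knockout libraries close together. TH17 cells held 21.3 to 25.5 CPM against 8.83 to 10.1 CPM (-1.34 ± 0.35), the smallest of its 8 differences. Treg cells held 27.2, 24.3 and 28.3 CPM in WT against 6.74, 12.3 and 9.38 CPM (-1.49 ± 0.35). TH17 and Treg cells thus kept more Jup than TH1 and TH2 cells did, 9.34 and 9.48 CPM beside 3.24 and 4.59 CPM on average.

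**Figure D2:**
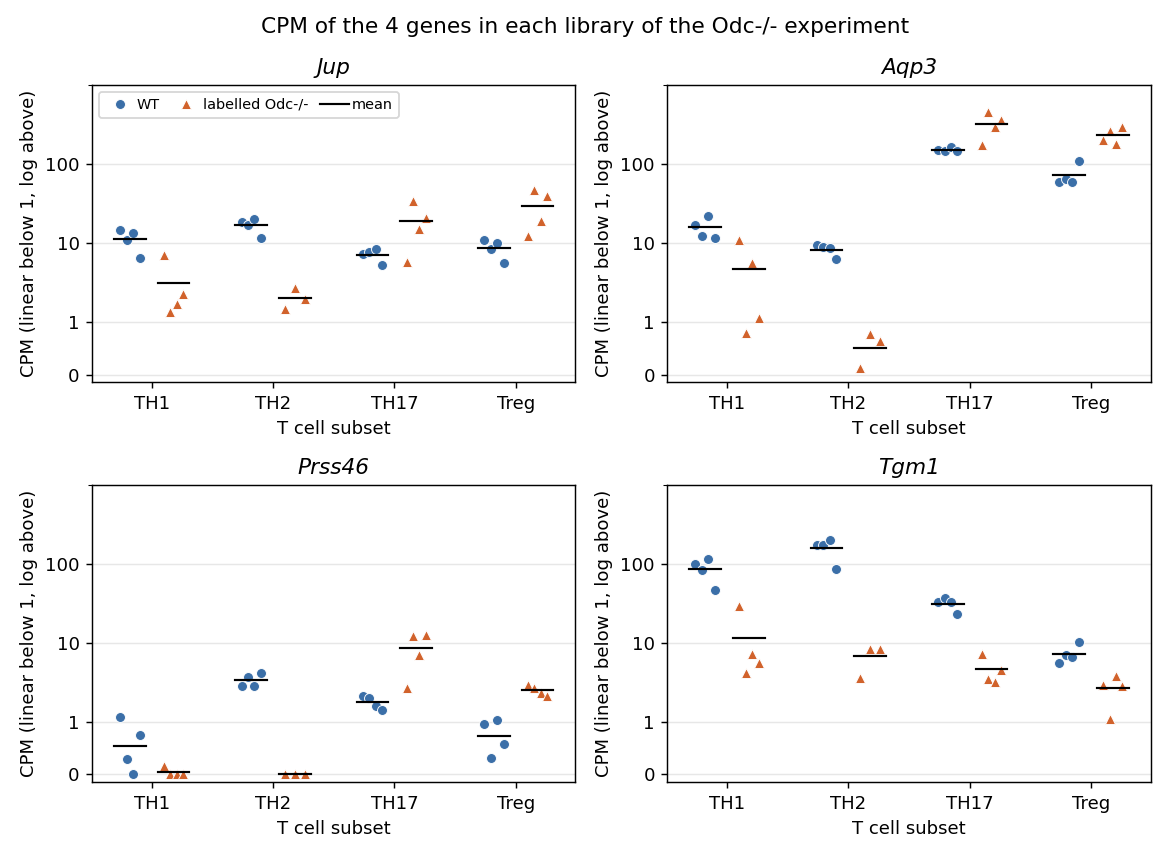
CPM of each gene (y axis, linear below 1 and logarithmic above) in each library of the Odc table by subset (x axis), with WT as blue circles, libraries labelled Odc-/- as orange triangles and black bars for means. The means of Jup, Aqp3 and Prss46 lie below WT in TH1 and TH2 cells and above it in TH17 and Treg cells, with overlapping libraries for Jup in TH1 and TH17 cells and for Prss46 in TH1 cells, and Tgm1 lies below WT throughout.

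Aqp3 (ENSMUSG00000028435.8) lies on chromosome 4, minus strand, from 41092722 to 41098183, with 1829 bases of exon. It was highest in TH17 and Treg cells, in WT as in knockout-labelled libraries. WT means in the Odc table were 151 CPM in TH17, 72.4 CPM in Treg, 15.7 CPM in TH1 and 8.23 CPM in TH2 cells, with no overlap between neighbours in this order. In the Dohh table they were 206, 147, 16.5 and 17 CPM, where only TH1 and TH2 cells overlapped. Per kilobase of exon, WT TH17 cells of the Odc table held 82.5 CPM of Aqp3 beside 1.11 of Jup, 1.31 of Prss46 and 9.89 of Tgm1.

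In the Odc table Aqp3 was higher in the subsets that held most of it and lower in the others. TH17 cells held 151, 145, 163 and 144 CPM in WT and 174, 459, 293 and 365 CPM in libraries labelled Odc-/-. The groups did not overlap, the lowest knockout library again being replicate 1, and the difference was 1.10 ± 0.34, which dropped to 0.88 without replicate 2 labelled Odc-/-. Treg cells held 58.6, 64.3, 59.1 and 108 CPM in WT and 200, 261, 178 and 296 CPM in libraries labelled Odc-/- (1.69 ± 0.34, 3.23-fold higher). TH2 cells went the other way, from 9.3, 8.8, 8.55 and 6.27 CPM in WT to 0.133, 0.764 and 0.646 CPM, which are 1, 6 and 5 counts (-3.95 ± 0.75, 15.5-fold lower). TH1 cells held 17, 12.4, 22.1 and 11.4 CPM in WT and 11, 0.794, 5.63 and 1.12 CPM when labelled Odc-/-. Replicate 1 lay just below the lowest WT library, and the difference was -1.79 ± 0.45, or -2.65 without the 3 libraries of replicate 1. The ratio of mean Aqp3 in TH17 to TH2 cells was 18.3 in WT and 628 in libraries labelled Odc-/-, the latter on 12 counts in TH2 cells.

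In the Dohh table Aqp3 was lower than WT in each subset, with no overlap. TH1 cells went from 16.4, 15.4 and 17.7 CPM to 0.409, 0.947 and 2.65 CPM (-3.60 ± 0.35), and to -4.68 without replicate 3 labelled Dohh-/-. TH2 cells went from 15.5, 17.3 and 18 CPM to 1.73, 1.06 and 2.1 CPM (-3.37 ± 0.34). These differences, 12.1-fold and 10.3-fold, were wider than those in the subsets where Aqp3 was high. TH17 cells held 233, 202 and 185 CPM in WT against 71.3, 49.8 and 36.3 CPM (-1.97 ± 0.26), and Treg cells 155, 142 and 145 CPM against 46.4, 55.5 and 48.1 CPM (-1.56 ± 0.26). Highest over lowest subset mean was 12.5 in WT and 39.3 in libraries labelled Dohh-/-, so the spread between subsets was wider in knockout than in WT libraries of both tables while the direction in TH17 and Treg cells was not shared.

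**Figure D3:**
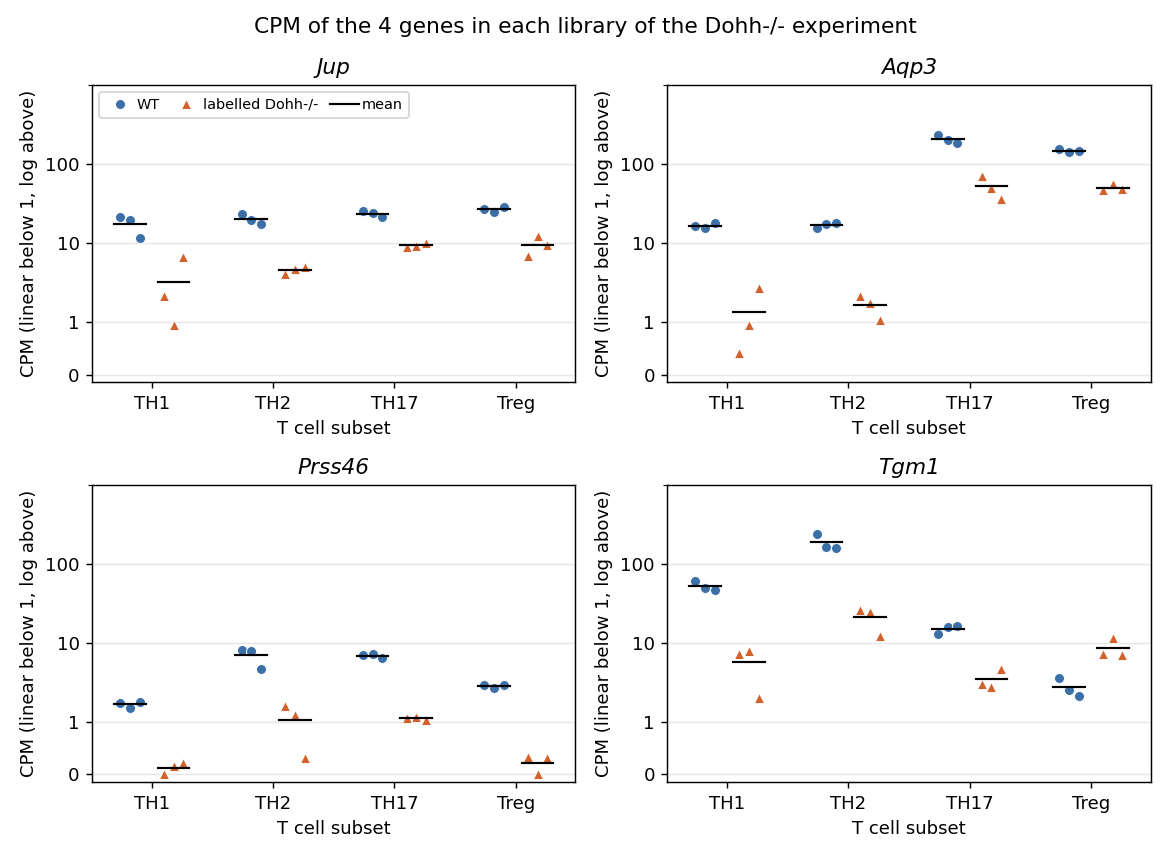
CPM of each gene (y axis, linear below 1 and logarithmic above) in each library of the Dohh table by subset (x axis), with WT as blue circles, libraries labelled Dohh-/- as orange triangles and black bars for means. No gene has overlapping groups in any subset, and Tgm1 in Treg cells is the single case above WT.

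Prss46 (ENSMUSG00000049719.14) lies on chromosome 9, plus strand, from 110844506 to 110856522, with 1346 bases of exon. It was the member with the fewest reads, and many of its values are at or below the limit that a count of 0 allows. WT means were 3.36 CPM in TH2, 1.76 CPM in TH17, 0.721 CPM in Treg and 0.545 CPM in TH1 cells of the Odc table, and 6.9, 6.83, 2.84 and 1.68 CPM in the same order in the Dohh table. The order was the same in both tables, with overlap between Treg and TH1 cells in the former and between TH2 and TH17 cells in the latter.

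In TH2 cells of the Odc table the 4 WT libraries held 23, 28, 21 and 28 counts of Prss46 and the 3 labelled Odc-/- held none. With 3 counts taken for the whole knockout group, this is 25.7-fold lower. The 95% counting interval of the ratio, which also takes in the WT counts, starts at 20.5-fold. In TH1 cells the WT libraries held 8, 2, 0 and 5 counts and those labelled Odc-/- 1, 0, 0 and 0 counts. WT replicate 3 was thus at 0 as well and the groups overlapped. The ratio of the summed counts, scaled to depth, was 15.5-fold lower, with a 95% counting interval of 2.38 to 651. The fitted difference was -3.45. Without replicate 1 labelled Odc-/- the knockout group held no read, and the fitted -5.13 is then no bound. This comparison missed the adjusted p threshold when WT replicate 1 was left out (-2.81). In TH17 cells Prss46 was at 2.09, 1.99, 1.58 and 1.39 CPM in WT and at 2.66, 12.1, 6.99 and 12.4 CPM in libraries labelled Odc-/- (2.27 ± 0.41, 4.81-fold higher). In Treg cells it was at 0.953, 0.31, 1.04 and 0.583 CPM in WT and at 2.91, 2.65, 2.33 and 2.09 CPM (1.78 ± 0.49). Both pairs of groups were separate, and replicate 1 was the lowest knockout library in TH17 cells and the highest in Treg cells. The subset with the highest level therefore changed from TH2 in WT to TH17 in libraries labelled Odc-/-.

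In libraries labelled Dohh-/- Prss46 was lower than WT in all subsets, again without overlap. TH1 cells held 21, 15 and 16 counts in WT and 0, 1 and 2 counts when labelled Dohh-/-, a ratio of 14.1-fold with a counting interval of 4.56 to 70.4. The fitted difference was -3.67 ± 0.69, and it was -4.47 without replicate 3 and -3.01 without replicate 1 labelled Dohh-/-. TH2 cells held 8.07, 7.93 and 4.71 CPM in WT against 1.22, 0.318 and 1.57 CPM (-2.72 ± 0.49). TH17 cells held 7.02, 7.12 and 6.35 CPM against 1.12, 1.13 and 1.06 CPM (-2.62 ± 0.48), where both groups were tight. Treg cells held 2.93, 2.67 and 2.9 CPM against 0.331, 0 and 0.309 CPM (-3.68 ± 0.60), with 6 counts in all knockout libraries together.

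Tgm1 (ENSMUSG00000022218.15 in the counts) lies on chromosome 14, minus strand, from 55700009 to 55713926. The positions and exon length used here, also per kilobase, are those of ENSMUSG00000022218.16, and the exons that were counted may differ. Of the 3162 exon bases of Tgm1, 182 (5.76%) overlap exons of Gm49067 on the opposite strand. The strand setting of the counting is not given in the sources used here. Its WT order was TH2, TH1, TH17 and Treg in both tables. In the Odc table WT means were 157, 85.8, 31.3 and 7.28 CPM, with overlap only between TH2 and TH1 cells, and those of the Dohh table were 186, 52, 14.9 and 2.74 CPM, with none. TH2 and TH1 cells thus came before TH17 and Treg cells, the other way round from Aqp3.

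In the Odc table the differences of Tgm1 were wider where WT cells held more of it. In TH2 cells it went from 172, 170, 201 and 84.4 CPM in WT to 3.58, 8.28 and 8.27 CPM in libraries labelled Odc-/- (-4.54 ± 0.52, 23.3-fold lower). In TH1 cells it went from 99.7, 83.6, 113 and 46.5 CPM to 29.4, 4.1, 7.18 and 5.46 CPM (-2.91 ± 0.43). Replicate 1 of TH1 cells held several times the level of the other 3 knockout libraries, and without the replicate 1 libraries the difference was -3.94. TH17 cells went from 33.1, 36.8, 32.6 and 22.8 CPM to 7.18, 3.42, 3.16 and 4.55 CPM (-2.76 ± 0.47), and Treg cells from 5.5, 6.92, 6.57 and 10.1 CPM to 2.91, 1.08, 3.75 and 2.87 CPM (-1.46 ± 0.55). No pair of groups overlapped, and the Treg difference missed the adjusted p threshold when replicate 2 labelled Odc-/- (-1.19) or WT replicate 4 (-1.26) was left out.

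Tgm1 was also lower in TH1, TH2 and TH17 cells labelled Dohh-/-. TH2 cells held 235, 163 and 159 CPM in WT against 24.6, 12 and 26.1 CPM (-3.15 ± 0.34). TH1 cells held 60.6, 48.6 and 46.8 CPM against 7.26, 7.89 and 1.99 CPM (-3.20 ± 0.37), and TH17 cells 12.7, 15.6 and 16.4 CPM against 3.04, 2.73 and 4.68 CPM (-2.13 ± 0.38). Treg cells, where WT Tgm1 was lowest, differed in sign, with 3.54, 2.55 and 2.13 CPM in WT (47, 21 and 25 counts) and 7.29, 11.4 and 6.91 CPM in libraries labelled Dohh-/- (66, 113 and 67 counts). Each knockout library was above each WT library, and the fitted difference was 1.62 ± 0.39, or 3.08-fold higher. The knockout levels of all subsets came to lie closer together than the WT levels. Highest over lowest subset mean was 21.5 in WT and 4.35 in libraries labelled Odc-/-, and 67.7 in WT and 5.99 in libraries labelled Dohh-/-.

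Across all 4 genes, knockout and WT libraries overlapped in 3 of the 32 pairs of groups, Jup in TH1 and TH17 cells and Prss46 in TH1 cells, each in the Odc table. Groups that do not overlap were common among all tested genes. In the Odc table they made up 43.3% of genes in TH1, 61.1% in TH2, 41.1% in TH17 and 45.8% in Treg cells, and the shares in the Dohh table were 50.7%, 62.4%, 61.9% and 66.6% in the same order. Of the members, Aqp3 in TH17 cells labelled Odc-/- stood nearest to the 2-fold threshold, at 1.10. The genes just outside it were Cysltr1, a receptor for cysteinyl leukotrienes, and Map6, a protein that stabilizes microtubules, which had mixed directions and an adjusted p under 0.05 in all 8 comparisons but smallest differences of 0.92 and 0.87. Cysltr1 was higher only in TH2 (0.92) and Treg cells (1.14) labelled Dohh-/-, and Map6 only in TH2 cells labelled Dohh-/- (1.02). In all, 27 genes in mixed directions passed the adjusted p in the 8 comparisons with no fold threshold, and 24 passed both thresholds in 7 of the 8.

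The stretches of 250 bases before the transcription start are shown because Jup, Aqp3 and Prss46 moved with the same order of signs and Tgm1 did not. They are RefSeq starts on GRCm38.p6, written along the strand of the gene. Capitals mark matches, on either strand, to a list of short motifs that was chosen after the sequences had been seen. The TATA box was searched as the letters TATAAA, the CCAAT box by its name and the GC box as the letters GGGCGG. Sites of transcription factor families were searched in simple forms, for AP-1 with the letters TGANTCA, for STAT proteins with the letters TTCNNNGAA, for forkhead factors with the letters GTAAACA and for GATA factors with the letters AGATAA. A site of nuclear receptors was searched as the letters AGGTCA, and the E-box, which binds basic helix-loop-helix factors, as the letters CACGTG. None of the marked matches overlap. A match describes letters only, and its absence says only that those letters are not in the window.
Jup, chr11:100397791-100398040, minus strand: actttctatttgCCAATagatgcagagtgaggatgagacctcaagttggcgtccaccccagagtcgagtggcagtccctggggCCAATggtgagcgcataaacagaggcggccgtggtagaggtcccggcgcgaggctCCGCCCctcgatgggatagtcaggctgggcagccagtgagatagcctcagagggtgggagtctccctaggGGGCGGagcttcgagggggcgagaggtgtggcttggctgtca
Aqp3, chr4:41098184-41098433, minus strand: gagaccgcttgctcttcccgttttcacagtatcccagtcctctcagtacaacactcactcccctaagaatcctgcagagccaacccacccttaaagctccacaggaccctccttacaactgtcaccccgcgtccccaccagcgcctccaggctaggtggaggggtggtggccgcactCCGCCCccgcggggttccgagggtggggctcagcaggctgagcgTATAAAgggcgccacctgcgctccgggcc
Prss46, chr9:110844256-110844505, plus strand: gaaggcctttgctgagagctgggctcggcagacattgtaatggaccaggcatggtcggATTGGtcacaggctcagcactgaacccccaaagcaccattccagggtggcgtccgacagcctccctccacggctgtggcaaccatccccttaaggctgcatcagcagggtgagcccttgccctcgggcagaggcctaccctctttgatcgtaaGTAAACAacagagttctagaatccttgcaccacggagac
Tgm1, chr14:55713493-55713742, minus strand: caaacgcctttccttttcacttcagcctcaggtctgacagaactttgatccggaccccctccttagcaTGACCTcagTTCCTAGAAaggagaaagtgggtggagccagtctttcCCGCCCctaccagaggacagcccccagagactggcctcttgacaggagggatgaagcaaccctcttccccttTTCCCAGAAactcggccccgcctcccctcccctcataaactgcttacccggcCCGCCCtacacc

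The Aqp3 stretch held a TATA box whose first base was 29 bases before the start, letters found in 12.4% of the 32851 RefSeq stretches of this length. The Jup stretch held 2 CCAAT boxes (33.8% of stretches hold at least 1) and 2 GC boxes (32.7%), and the Aqp3 stretch held 1 GC box. The Prss46 stretch held the forkhead letters, 39 bases before the start, which 3.17% of stretches hold, and a CCAAT box. The Tgm1 stretch held 2 STAT matches (7.02%), 2 GC boxes and, on the opposite strand, the nuclear receptor letters (14%). RefSeq gives Tgm1 a second start, whose stretch (chr14:55713089-55713338, not printed) held a CCAAT box and no other motif of the list. The stretches of Jup, Aqp3 and Prss46 had no motif of the list in common. GC content was 62%, 64%, 58% and 58% for Jup, Aqp3, Prss46 and Tgm1, beside a median of 52.4%. Of the Tgm1 stretch, 2 bases lie in an annotated exon, and which gene that exon belongs to was not recorded. The annotated Tgm1 gene itself reaches further upstream, to 55713926.

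The genes whose group means followed each member most closely were found by Pearson's r of log2 CPM, centred in each table, over the 16 groups of both tables and 12894 ranked genes. These are descriptions, since groups of a table share their deletion and were scaled together. Jup was most like Pacsin3 (r = 0.91), Slc27a1 (0.90), a fatty acid transporter, and Pwwp2b (0.90). Aqp3 was most like Cd101 (0.95), an inhibitory receptor of T cells, Smad7 (0.95), the feedback inhibitor of TGF-β signalling, and Herc3 (0.94). Prss46 was most like Ctsf (0.89), a lysosomal cysteine protease, Fgf2os (0.88) and 2610301B20Rik (0.87). Tgm1 was most like Npr3 (0.97), the clearance receptor for natriuretic peptides, Rabggta (0.96) and Cyp4f39 (0.96), a cytochrome P450 of the epidermal lipid barrier. Between members, r was 0.84 for Jup and Prss46, 0.79 for Jup and Aqp3 and 0.67 for Aqp3 and Prss46, and it was 0.19, -0.21 and 0.26 for Tgm1 with Jup, Aqp3 and Prss46. Many other genes were closer, since Prss46 ranked 40 and Aqp3 ranked 117 in likeness to Jup, and Prss46 ranked 852 in likeness to Aqp3. The order of signs shared by Jup, Aqp3 and Prss46 is part of how they were chosen.

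The nearest protein-coding genes on either side of each member that were tested in both tables were compared as well, by edgeR in the same fits. Prss50, a serine protease gene that lies 1445 bases from Prss46, moved with the same signs as Prss46 in the 6 comparisons in which it was called. It fell in TH2 cells labelled Odc-/- (-4.92 ± 0.87, edgeR adjusted p = 3.27e-05) and rose in TH17 (3.40 ± 0.58, edgeR adjusted p = 4.63e-05) and Treg cells (4.39 ± 0.62, edgeR adjusted p = 1.24e-06). It fell in TH1 (-2.20), TH2 (-2.86) and Treg cells (-3.01) labelled Dohh-/- and was not called in TH17 cells (0.42 ± 0.71, edgeR adjusted p = 0.639). Its levels were low, with 1 count in the TH2 libraries labelled Odc-/- against 54 in WT and 82 counts in the Treg libraries labelled Odc-/- against 4 in WT. Jup lies between Hap1, 12830 bases away, and P3h4, 10693 bases away. Both fell in all 8 comparisons, with log2 fold changes from -5.44 to -1.74 for Hap1 and from -3.64 to -1.45 for P3h4, TH17 and Treg cells labelled Odc-/- included, where Jup was higher. Rabggta, the subunit of a Rab prenyltransferase whose gene is 1490 bases from Tgm1, was the second most like Tgm1 over the 16 groups, but its differences were small, from -1 to 0.25, with 1 call. Nfx1 and Nol6 beside Aqp3 differed from -0.85 to 0.28 and from 0.22 to 1.89, with 3 calls of Nol6, all higher. Ccdc12 beside Prss46 was called higher in 3 comparisons, and Tinf2 beside Tgm1 differed from -0.86 to 0.69.

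Genes related to the members by function or family were listed, 114 in all without the members, of which 48 had enough reads for a test in the Odc libraries and 50 in the Dohh libraries. Pooled over the 4 lists, called genes made up 27.1% to 50% of those tested, beside 15.6% to 32.7% of all tested genes. This is a description with no test, and single lists were in places at or below the share of all genes, as the partners of Jup were in TH1 and Treg cells labelled Odc-/- and the relatives of Tgm1 in TH1 cells labelled Dohh-/-. In TH1 cells labelled Odc-/- 6 related genes (12.5%) were called higher and 8 (16.7%) lower, beside 10.2% and 11.3% of all tested genes. In TH2 cells 6 were higher and 11 lower (12.5% and 22.9%, beside 11.5% and 13.6%). In TH17 cells 7 were higher and 6 lower (14.6% and 12.5%, beside 8.35% and 7.21%), and in Treg cells 13 and 7 (27.1% and 14.6%, beside 13.9% and 10.1%). Among libraries labelled Dohh-/-, 7 were higher and 12 lower in TH1 cells (14% and 24%, beside 14.8% and 14.2%), and 13 and 11 in TH2 cells (26% and 22%, beside 14.3% and 11.6%). TH17 cells had 15 and 10 (30% and 20%, beside 17.3% and 14.1%), and Treg cells 12 and 12 (24% and 24%, beside 17.5% and 15.2%). Pooled, the lists were thus mixed in direction in every comparison, with medians of all their tested genes from -0.22 to 0.26. Medians of single lists ran from -0.79 for the relatives of Aqp3 in TH2 cells labelled Odc-/- to 1.85 for those of Prss46 in Treg cells labelled Odc-/-, where 6 were called higher and 2 lower, and the relatives of Tgm1 in TH17 cells labelled Dohh-/- had 3 calls, all higher.

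**Figure D4:**
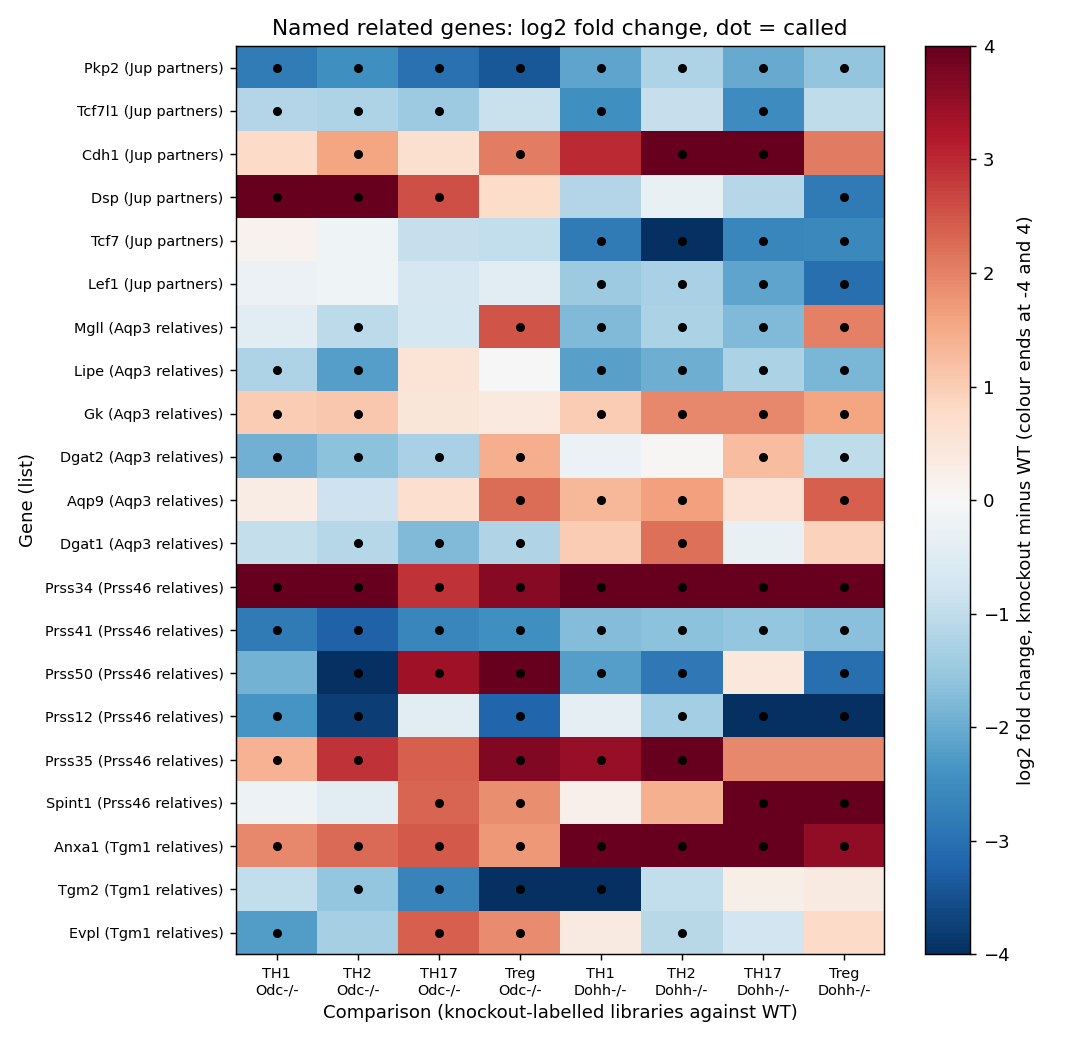
Log2 fold change (colour, knockout-labelled minus WT) of the named related genes (y axis, with their list) in the 8 comparisons (x axis), where black dots mark calls. Pkp2 and Prss41 are blue with dots in all 8 columns and Anxa1 and Prss34 red with dots in all 8, and Prss50 is red only in TH17 and Treg cells labelled Odc-/- among its calls.

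Of the junction and Wnt partners of Jup, 17 of 28 were tested, with 3, 5, 3 and 3 calls for TH1, TH2, TH17 and Treg cells labelled Odc-/-. These are 17.6%, 29.4%, 17.6% and 17.6% of the list, near or below the 21.4%, 25.1%, 15.6% and 24% of all tested genes. For the same subsets labelled Dohh-/- there were 7, 7, 9 and 7 calls, or 41.2%, 41.2%, 52.9% and 41.2%, beside 29.1%, 25.9%, 31.4% and 32.7% of all tested genes. Pkp2, which encodes the desmosomal plakophilin that binds plakoglobin, fell in all 8 comparisons. In Treg cells WT libraries held 28.9 ± 7.86 CPM (SD, n = 4) and those labelled Odc-/- 2.76 ± 0.997 CPM (-3.39 ± 0.56, edgeR adjusted p = 1.63e-05), where Jup was higher than WT. Ctnnb1, β-catenin and the closest paralog of Jup, never passed the 2-fold threshold and differed from -0.69 to -0.18, with an edgeR adjusted p under 0.05 in 6 of the 8 comparisons. It was far more abundant, at 232 to 417 CPM on average in WT. Tcf7 and Lef1, transcription factors that β-catenin binds, fell in all 4 subsets labelled Dohh-/-, Tcf7 by 2.59 to 4.08 and Lef1 by 1.29 to 3.01 on the log2 scale. In libraries labelled Odc-/- neither passed the 2-fold threshold, with Tcf7 from -0.99 to 0.13 and Lef1 from -0.66 to -0.16. Both were lower with an adjusted p under 0.05 in TH17 and Treg cells, but not in TH1 or TH2 cells. For Tcf7 the edgeR adjusted p was 0.000298 in TH17 and 6.12e-05 in Treg cells, and for Lef1 0.0012 and 0.0175. Tcf7l1 fell in TH1, TH2 and TH17 cells labelled Odc-/- and in TH1 and TH17 cells labelled Dohh-/-. Cdh1, E-cadherin, rose in TH2 and Treg cells labelled Odc-/- and in TH2 and TH17 cells labelled Dohh-/-. In TH2 cells labelled Dohh-/- 1 library held 412 of the 497 knockout counts of Cdh1. In Treg cells labelled Odc-/- it rose from 6.46 ± 2.85 to 26.7 ± 6.68 CPM (edgeR adjusted p = 1.88e-05). Dsp, the desmoplakin to which plakoglobin links desmosomal cadherins, was called higher in TH1, TH2 and TH17 cells labelled Odc-/- and lower in Treg cells labelled Dohh-/-, at low levels. In TH1 cells the libraries labelled Odc-/- held 37 counts of Dsp, 26 of them in 1 library, and WT held 0, and in TH2 cells 64 of 93 knockout counts were in 1 library.

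The list around Aqp3 held other aquaporins and enzymes that make or use glycerol, and of its 22 genes 13 were tested with the Odc libraries, 14 with the Dohh libraries. Aqp9, the other glycerol channel with enough reads, had the sign of Aqp3 in 3 of 4 subsets labelled Odc-/- and the opposite sign in each subset labelled Dohh-/-. It rose in Treg cells labelled Odc-/- (from 5.08 ± 1.15 to 23.8 ± 7.28 CPM, SD, n = 4, edgeR adjusted p = 1.07e-07) and in TH1, TH2 and Treg cells labelled Dohh-/- (by 1.34, 1.64 and 2.38), where Aqp3 was lower. It did not reach the 2-fold threshold in TH1 (0.30), TH2 (-0.84, edgeR adjusted p = 0.0106) and TH17 cells (0.66, edgeR adjusted p = 0.025) labelled Odc-/- or in TH17 cells labelled Dohh-/- (0.57). Gk, glycerol kinase, rose in TH1 and TH2 cells labelled Odc-/- (1.02 and 1.07) and in all 4 subsets labelled Dohh-/- (1.02 to 1.93). Lipe, hormone-sensitive lipase, fell in the same 6 comparisons, by 1.23 to 2.19 on the log2 scale, and was not called in TH17 (0.56) or Treg cells (0.02) labelled Odc-/-. Mgll, monoacylglycerol lipase, which releases glycerol, fell in TH2 cells labelled Odc-/- and in TH1, TH2 and TH17 cells labelled Dohh-/- and rose in Treg cells of both tables (2.53 and 2.02). Dgat2, an acyltransferase that makes triglycerides, fell in TH1, TH2 and TH17 cells labelled Odc-/- and in Treg cells labelled Dohh-/-, and rose in Treg cells labelled Odc-/- (1.46) and TH17 cells labelled Dohh-/- (1.23). Dgat1, which does the same, fell in TH2, TH17 and Treg cells labelled Odc-/- and rose in TH2 cells labelled Dohh-/- (2.19, edgeR adjusted p = 2.79e-06).

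Of the 29 genes listed with Tgm1, among them other transglutaminases and genes of the cornified envelope, 7 were tested in either table. Tgm2, tissue transglutaminase and the nearest relative with reads, was higher in level than Tgm1, at 136 to 1790 CPM on average in WT. It fell in TH2, TH17 and Treg cells labelled Odc-/- (-1.56, -2.66 and -4.46) and in TH1 cells labelled Dohh-/- (-4.06 ± 0.55, edgeR adjusted p = 9.38e-06), and in Treg cells labelled Dohh-/- it was not called (0.37 ± 0.49, edgeR adjusted p = 0.547). Anxa1, annexin A1, an envelope component that is also abundant in myeloid cells, rose in all 8 comparisons, by 1.73 to 6.12, with 2433 of 3385 knockout counts in 1 library in TH17 cells labelled Dohh-/-. Evpl, envoplakin, fell in TH1 cells labelled Odc-/- (-2.22) and TH2 cells labelled Dohh-/- (-1.10) and rose in TH17 (2.39) and Treg cells (1.89) labelled Odc-/-.

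Of the serine protease genes and their inhibitors listed with Prss46, 11 of 35 were tested with the Odc libraries, 12 with the Dohh libraries. Prss41 fell in all 8 comparisons, by 1.56 to 3.25 on the log2 scale, and in TH2 cells labelled Odc-/- its level was 1.08 ± 0.609 CPM (SD, n = 3) beside 10.4 ± 2.47 CPM in 4 WT libraries (edgeR adjusted p = 7.2e-06). Prss12, neurotrypsin, fell in 6 comparisons, among them Treg cells labelled Dohh-/-, from 28 ± 5.13 to 0.568 ± 0.447 CPM (SD, n = 3, edgeR adjusted p = 4.48e-08). Prss34, a protease of mast cells and basophils, rose in all 8 comparisons, with means of at most 0.573 CPM in WT groups and 3.92 to 63.9 CPM in knockout-labelled groups. Single libraries held much of it, 622 of 673 knockout counts in TH1 cells labelled Dohh-/- (34.6 ± 55.1 CPM, SD, n = 3) and 92 of 114 in TH17 cells labelled Odc-/- (4.55 ± 7.19 CPM, SD, n = 4). Prss35 rose in TH1, TH2 and Treg cells labelled Odc-/- and in TH1 and TH2 cells labelled Dohh-/-. Spint1, a membrane inhibitor of serine proteases, rose in TH17 and Treg cells of both tables (2.33 and 1.85 when labelled Odc-/-, 5.63 and 4.86 when labelled Dohh-/-). Prss45, the paralog of Prss46 in the same cluster, had too few reads to be tested.

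Markers of other cells moved with the labels. Among all tested genes, 8.35% to 17.5% were called higher and 7.21% to 15.2% lower in single comparisons. Marker counts near these shares are given as a description only. In bulk libraries, fewer cells of a type and less RNA per cell cannot be told apart. Of 6 tested myeloid markers, 6 were called higher in TH17 and 5 in Treg cells labelled Odc-/-, the subsets in which Jup, Aqp3 and Prss46 were higher, and at most 1 in TH1 and TH2 cells. Their summed level was 13.8 to 41.5 CPM in WT and 42.9 to 576 CPM in knockout-labelled libraries of TH17 cells, and 15.2 to 34.9 CPM and 92.8 to 747 CPM in Treg cells. In TH17 cells labelled Dohh-/- that sum was higher still, 565 to 11500 CPM against 22.9 to 25.9 CPM, with 6 of 6 called higher, and there all 4 members were lower. Of the same 6 markers, 6 were called higher in TH2 cells labelled Dohh-/- (8.71 to 702 CPM against 0.905 to 1.59 CPM in sum) and 3 in TH1 cells, where Tgm1 and the other members were lower too. In Treg cells labelled Dohh-/-, where Tgm1 was higher, the sum of the myeloid markers was 339 to 4760 CPM against 17.6 to 21 CPM, with 5 of 6 called. Itgam was at 0 throughout the Dohh table. Of 8 basophil and mast cell markers, which include Prss34, 6 to 8 were called higher in each comparison, with sums up to 1240 CPM in TH17 cells labelled Dohh-/- against at most 25.3 CPM in WT. Of 5 listed CD8+ T and NK cell markers, 4 were called higher in Treg cells labelled Odc-/-, with sums of 241 to 365 CPM against 35.6 to 58.8 CPM, and 1 to 3 in the other subsets of that table. Of 4 tested in the Dohh table, 3 were called higher in TH17 and Treg cells, and in TH1 and TH2 cells 2 were called higher and 1 lower, with sums of 480 to 564 CPM against 40.3 to 57.5 CPM in Treg cells, where Tgm1 was higher, and of 163 to 490 CPM against 37.7 to 50.2 CPM in TH1 cells. According to the paper's methods, the cultures began from naive CD4+ T cells that had been isolated by negative selection. The part of other cells in the levels of the 4 genes was not tested. B cell markers were called higher 5 of 5 in TH1, TH2 and Treg cells and 1 of 5 in TH17 cells labelled Odc-/-, and in at most 1 of 4 tested in the Dohh table. Erythroid markers stayed at or below 3.39 CPM in sum in the Odc table and reached 62.2 CPM in TH17 cells labelled Dohh-/-. Of 7 T cell markers, 0 to 2 were called lower in comparisons of the Odc table and 4 in each comparison of the Dohh table. Among epithelial markers, for the tissues from which Jup, Aqp3 and Tgm1 are best known, those that define keratinocytes were near 0, with Krt14 at 0 in all libraries, Krt5 at no more than 0.115 CPM and Trp63 at no more than 0.646 CPM. The sum of the list was 1.04 to 84 CPM. Of its 9 genes 3 were tested, and in TH2 cells of both tables, where all 4 members were lower, 2 were called lower and 1 higher. Krt18 was at 7.29 to 18.1 CPM in WT TH2 cells and 0.53 to 1.15 CPM in those labelled Odc-/-, and at 25.9 to 32.1 CPM and 4.77 to 13.7 CPM in the Dohh table. Epcam, which T cells can also express, was at 8.6 to 27.4 CPM in WT TH2 cells and 2.84 to 4.46 CPM in those labelled Odc-/-, and at 43 to 45.3 CPM and 2.01 to 3.15 CPM in the Dohh table. Cdh1 went the other way, from 0 to 0.735 CPM in WT TH2 cells to 0.904 to 2.17 CPM in those labelled Odc-/-. In TH2 cells of the Dohh table Cdh1 was at 0.423 to 0.56 CPM in WT and 1.36 to 42 CPM when labelled Dohh-/-. In the other subsets at most 1 gene of the list was called in each direction.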

How the data were processed

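The authors processed TruSeq stranded mRNA libraries with deepTools and STAR on mm10, as the submitters' processing notes name them without versions, and counted reads per gene with featureCounts. The deposited values are raw counts, in 2 tables, with every column used. The labels do not say that libraries of a group came from separate mice, so the spread may be partly technical. Each table was fitted with edgeR 4.0.16 (R 4.3.3): filterByExpr, TMM scaling, 1 mean per group over its 8 groups, robust quasi-likelihood test, Benjamini-Hochberg adjustment over all genes tested. Standard errors of log2 fold changes were approximated as the absolute fold change divided by the square root of the quasi-likelihood F. Genes were called at an absolute log2 fold change over 1 and an adjusted p under 0.05. CPM were computed from the counts with TMM-scaled library sizes, and log2 CPM with a prior count of 2. The members and lists were chosen with earlier results of these data known. Of the related genes, those called in at least 4 of 8 comparisons, at most 6 per list, and the nearest paralogs are named. Positions are from GENCODE M21 and promoter stretches from RefSeq, both on GRCm38. The fit was tested on simulated data. Alternatives were DESeq2 1.42.0, other scaling and filters, other thresholds, the replicate block and each library left out. Not every marker gene examined is reported here.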

Additional observations from a re-analysis of the deposited data

Results flagged for a closer look

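Of 28 groups of 4 libraries in which a member was measured, 4 had a library far from the others by Dixon's ratio of gap to range, above 0.829, where chance gives about 1 in 20 groups. In TH1 cells labelled Odc-/-, replicate 1 was the highest library for Jup (ratio 0.841), Prss46 (ratio 1, on 1 count against 0 in the other libraries) and Tgm1 (ratio 0.878). This is the library that lies nearer to WT than the others of its group. In WT Treg cells of the Odc table, replicate 4 was the highest library for Aqp3 (ratio 0.885), at 108 CPM.

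The members were chosen for mixed directions, so opposite differences between subsets are part of the choice and were not tested. In the Odc table, pairs of subsets in which all libraries of one subset lay above WT and all of the other below numbered 1 for Jup, 4 for Aqp3 and 2 for Prss46. In the Dohh table they numbered 3 for Tgm1, Treg cells against each other subset. Groups without overlap made up 41.1% to 66.6% of all tested genes in single comparisons. The share of all genes with such opposite pairs was not computed, and nothing is read from these numbers.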

How the results depend on the processing

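No log2 fold change of a member changed sign under any alternative run, and of the 459 values computed for the 32 differences 447 moved by less than 1 SD between replicates. Beside the libraries named in the report, DESeq2 took Prss46 in TH2 cells labelled Odc-/- to -7.15 from a fitted -7.71, neither of which is a bound. With any 1 library left out, each member passed in 7 or 8 comparisons, and the related genes called numbered 12 to 17, 14 to 20, 10 to 15 and 19 to 23 in TH1, TH2, TH17 and Treg cells labelled Odc-/-, and 16 to 21, 17 to 25, 20 to 26 and 19 to 24 in those labelled Dohh-/-. A test against the 2-fold change itself (glmTreat) called 4, 9, 5 and 10 related genes in place of 14, 17, 13 and 20 in the Odc table and 9, 12, 14 and 13 in place of 19, 24, 25 and 24 in the Dohh table, and left Jup past the threshold in 3 comparisons, Aqp3 in 5 and Prss46 and Tgm1 in 6 each, with both directions kept for Prss46 only. Of the named related genes it called Anxa1 in 5 comparisons, P3h4 in 4, Gk and Prss35 in 3 each, Prss41, Dgat2, Dsp, Evpl, Lef1, Spint1 and Tcf7l1 in 2 each, Mgll and Dgat1 in 1 each, and Ccdc12 and Rabggta in 0. An adjusted p under 0.05 with no fold threshold called 27, 26 and 26 in TH1, TH2 and TH17 cells labelled Odc-/-. With only the 2 groups compared in the fit, Prss34 was called in 4 comparisons, Prss50 in 3, Prss35 in 3, Dsp in 2 and P3h4 in 5, 7 related genes were called in TH17 cells labelled Odc-/-, and Prss46 was not tested in TH1 cells labelled Odc-/-. Leaving out the replicate 1 libraries labelled Odc-/- together, chosen after seeing the data, gave 19, 18, 15 and 19 related genes and kept the members at 8 comparisons each. Same-numbered knockout and WT libraries deviated together weakly at most. Their r lay between -0.09 and 0.20 for the Odc libraries, over 0.1 in 6 of 15 pairs. For the Dohh libraries it lay between -0.03 and 0.14, over 0.1 in 1 of 12 pairs. The replicate block gave 16, 18, 13 and 20 related genes called in the Odc table and 20, 24, 25 and 25 in the Dohh table. It kept 8 comparisons for each member. Depth limits Prss46, whose knockout libraries of TH1 and TH2 cells hold 0 or 1 count each in the Odc table, and the estimate of Aqp3 in TH2 cells labelled Odc-/-.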
